A study of Mus musculus with 26 samples.

Results

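The genes described here are 10 members of the p53 and ARF tumour suppressor pathway, taken by gene name from the liver count table: Trp53, Cdkn2a, Mdm2, Cdkn1a, Bbc3, Pmaip1, Bax, Ccng1, Phlda3 and Zmat3. All 10 were found among the 36883 gene names of the table, and all 10 were among the 16892 genes that passed the filter on low counts. The libraries came from livers of Eµ-MYC mice, which carry a MYC transgene under the enhancer of the immunoglobulin heavy chain, active in B-lineage cells, and which are prone to B-cell lymphoma. The groups were 8 females under chronic jet lag (CJL, numbers 1 to 8), 8 females under 12:12 lighting (numbers 1 to 8), 4 males under jet lag (numbers 5 to 8) and 6 males under 12:12 lighting (numbers 1 to 6), after 8 weeks of the lighting. Every group carried the transgene, so no comparison with mice that lack it was made. Neither the shifting schedule nor the mice's age, health or hour of collection is stated in the labels. Beyond the numbers, no label says that libraries came from separate animals, so p-values measure the spread between these libraries.

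The p53 protein, encoded by Trp53, is a transcription factor that is kept low by Mdm2, a ubiquitin ligase whose own gene p53 activates. ARF, one of the products of Cdkn2a, binds Mdm2 and frees p53, and MYC activity is known to induce ARF. Once active, p53 turns on genes for cell cycle arrest (Cdkn1a, the CDK inhibitor p21; Ccng1, cyclin G1), for apoptosis (Bbc3, which encodes PUMA; Pmaip1, which encodes NOXA; Bax, a pore-forming effector at mitochondria) and for other responses (Phlda3, an inhibitor of AKT signalling; Zmat3, an RNA-binding protein). In lymphomas of Eµ-MYC mice, loss of Trp53 or of Cdkn2a is a known event. Cdkn2a also encodes INK4A, a CDK inhibitor, from another first exon, and the single Cdkn2a value per library cannot separate the ARF and INK4A transcripts. Message levels say nothing directly of p53 protein, of its activity or of mutations.

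The promoters of Cdkn2a are shown because its 2 products start at different places in the gene, which lies on the minus strand of chromosome 4 from 89274473 to 89294619 (GRCm38.p6). The 250 bases before each RefSeq start are printed from 5′ to 3′, with CpG dinucleotides in capitals. The window before the upstream start, the one on the ARF side, held 40 CpG dinucleotides. The window before the downstream start, on the INK4A side, held 7, against a median of 6 over all 32851 RefSeq promoter windows of that length.
Cdkn2a ARF side, chr4:89294620-89294869, minus strand: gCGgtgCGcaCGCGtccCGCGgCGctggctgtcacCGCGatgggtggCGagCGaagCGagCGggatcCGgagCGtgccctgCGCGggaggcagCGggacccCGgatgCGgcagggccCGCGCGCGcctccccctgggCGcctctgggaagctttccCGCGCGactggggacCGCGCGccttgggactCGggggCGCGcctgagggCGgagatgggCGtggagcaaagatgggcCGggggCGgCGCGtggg
Cdkn2a INK4A side, chr4:89282193-89282442, minus strand: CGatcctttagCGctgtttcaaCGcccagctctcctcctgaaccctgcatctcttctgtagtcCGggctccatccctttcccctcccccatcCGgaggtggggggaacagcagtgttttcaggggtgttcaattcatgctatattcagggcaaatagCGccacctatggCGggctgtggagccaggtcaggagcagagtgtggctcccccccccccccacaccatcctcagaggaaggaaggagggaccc

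The promoter of Cdkn1a and pieces of 4 others are shown because p53 binds pairs of a 10-base element, and letters matching the p53 half-site consensus stand in these windows. The element reads the same on both strands. Only exact matches to the consensus were searched for, counted and put in capitals. In the Cdkn1a window before the upstream start of the gene (chromosome 17, 29090979 to 29100722, plus strand), 2 half-sites in capitals began 73 and 51 bases before the start, with a gap of 12 bases between them. The 10 bases directly after the second one match the consensus at all but their first base, and are not in capitals. Which of these stretches p53 binds was not tested.
Cdkn1a, chr17:29090729-29090978, plus strand: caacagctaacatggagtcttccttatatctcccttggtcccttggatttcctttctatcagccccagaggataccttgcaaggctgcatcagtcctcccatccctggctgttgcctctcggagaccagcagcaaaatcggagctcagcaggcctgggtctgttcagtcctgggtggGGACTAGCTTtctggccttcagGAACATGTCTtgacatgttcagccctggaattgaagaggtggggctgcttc
For the other members with a match, 50 bases around the half-site are shown, again with the half-site in capitals. It began 75 bases before the start of Trp53, 186 before that of Mdm2, 201 before that of Bax and 185 before that of Ccng1.
Trp53, chr11:69580264-69580313, plus strand: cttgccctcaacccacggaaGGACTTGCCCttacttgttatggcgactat
Mdm2, chr10:117710915-117710964, minus strand: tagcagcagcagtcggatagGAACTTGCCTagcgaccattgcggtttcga
Bax, chr7:45467070-45467119, minus strand: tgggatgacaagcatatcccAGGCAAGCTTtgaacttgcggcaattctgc
Ccng1, chr11:40755442-40755491, minus strand: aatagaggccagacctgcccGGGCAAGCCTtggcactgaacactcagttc
Thus 5 of the 8 members with a window held at least 1 half-site, in 5 of their 12 windows, and 7.13% of all windows did. A pair of exact matches with a gap of at most 13 bases stood in 0.0639% of all windows, and pairs with an inexact match were not counted. The windows of Cdkn2a, Bbc3 and Phlda3 and the downstream window of Cdkn1a held no match, which says only that these letters are not there. Pmaip1 and Zmat3 had no window.

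The libraries held 45364552 to 50242014 counts each. In 8 of the 26, Cd79a, which encodes a signalling chain of the B cell receptor, stood at 14.5 to 144 CPM (the count scaled to a common library total), with a median of 54.1. In the other 18 it stood at 1.28 to 2.95 CPM, with a median of 2.40. The limit was 8 CPM, the nearest library above it was female jet lag library 2 at 14.5 CPM, and the nearest below it was female 12:12 library 5 at 2.95 CPM. The Cd79a-high libraries were female jet lag 2, 5 and 6, male jet lag 8, female 12:12 6 and 7, and male 12:12 3 and 5, so both lightings and both sexes were among them. The summed level of 12 B-lineage markers was 64.6 to 603 CPM (median 242) in the Cd79a-high libraries and 10.8 to 24.0 CPM (median 16.7) in the Cd79a-low ones. Of 12 proliferation markers, the sum was 71.3 to 969 CPM (median 371) in the Cd79a-high libraries and 17.4 to 35.04 CPM (median 23.3) in the Cd79a-low ones. Macrophage marker sums were 529 to 2502 CPM in Cd79a-high libraries and 278 to 607 CPM in Cd79a-low ones, and neutrophil marker sums 6.88 to 450 CPM in Cd79a-high libraries and 1.19 to 7.32 CPM in Cd79a-low ones. T and NK cell marker sums were 1.62 to 5.58 CPM in Cd79a-high libraries and 1.73 to 6.02 CPM in Cd79a-low ones. The hepatocyte gene Alb took 12.9% to 22.1% of the counts in Cd79a-high libraries and at most 14.4% in Cd79a-low ones. Of 8 hepatocyte markers, 1 had a median in the Cd79a-high libraries above every Cd79a-low library and 1 a median below. Their median ratio of medians was 0.97, so Alb does not stand for the list. In bulk tissue, more cells of a type and more RNA per cell cannot be told apart, and the part of these cell types in the results on the members was not tested. Because the Cd79a-high set was defined from the data, values between the sets are given as a description with no test.

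Among the 10 members, 3 had a median in the Cd79a-high libraries above the highest Cd79a-low library: Cdkn2a, Trp53 and Pmaip1. None had a median below the lowest Cd79a-low library. Over the 16892 genes that passed the filter, 20.5% had such a median above and 3.56% such a median below, so a raised level was common in these libraries. Cdkn2a passed the filter only with the Cd79a-high libraries included, the set in which it is high. Its place among the 3 is therefore description and no support. Of the 7 members with a mean of at least 1 CPM, 1 (Trp53) was among those with a raised median, against 21.6% of all 12703 genes at that level (4.43% had a median below). That mean was taken over all 26 libraries. Cdkn1a, which is among the 7, reached it only with the Cd79a-high libraries included. The inhibitor Mdm2 and most targets overlapped widely between the sets.

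**Figure D1:**
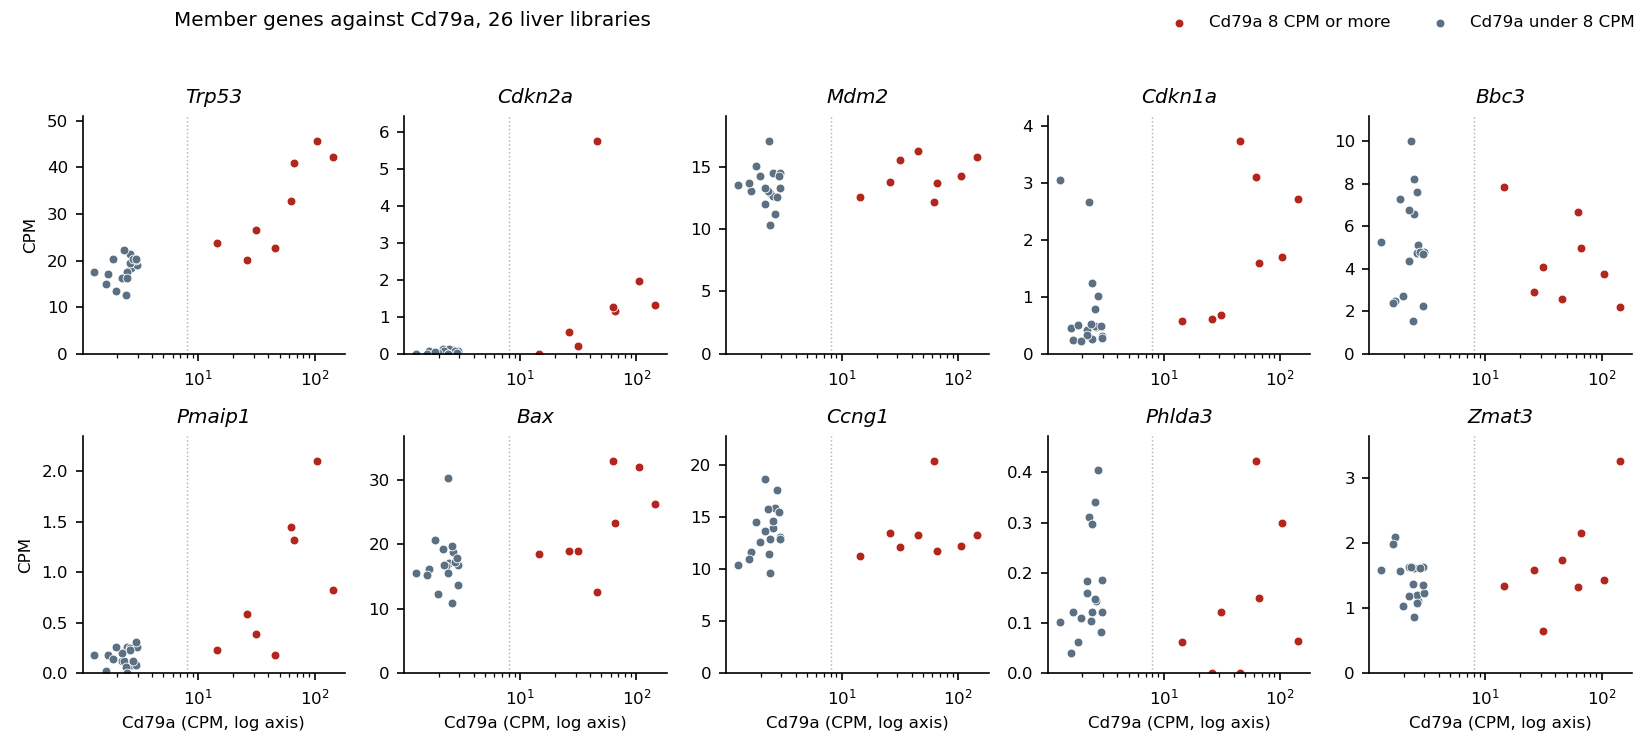
Level of each of the 10 members (CPM, vertical axis) against the Cd79a level of the same library (CPM, log axis); each point is 1 of the 26 libraries, red where Cd79a was 8 CPM or more and grey where it was lower, with the limit as a dotted line. The red points of Trp53, Cdkn2a and Pmaip1 have medians of 29.7, 1.21 and 0.707 CPM, above every grey point, while those of Mdm2 stay within the grey range.

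Cdkn2a was at or near the counting floor in the Cd79a-low libraries and above all of them in 7 of the 8 Cd79a-high ones. The top value, in male 12:12 library 3, was 5.76 CPM, which is 278 counts. Female 12:12 library 6 had 1.97 CPM (92 counts), male jet lag library 8 had 1.31 CPM (62 counts), female jet lag library 5 had 1.27 CPM (63 counts) and female 12:12 library 7 had 1.15 CPM (54 counts). Lower levels were seen in male 12:12 library 5 (0.589 CPM, 29 counts) and female jet lag library 6 (0.203 CPM, 10 counts). Female jet lag library 2, the lowest of the 8 in Cd79a, had 0 counts of Cdkn2a, which allows a level of up to 0.0627 CPM by counting error alone (3 counts). The Cd79a-low libraries held 0 to 6 counts, with a median of 1.5 counts (0.0319 CPM) and a highest level of 0.122 CPM. Of these 18 libraries, 6 held no count and 6 held more than 3. No fold change is given, since the median of the Cd79a-low libraries lay under the 3-count floor.

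Relative to Cd79a, the Cdkn2a level was uneven among the Cd79a-high libraries. In male 12:12 library 3 there were 12.6 counts of Cdkn2a per 100 counts of Cd79a. The next was male 12:12 library 5 with 2.25, so the highest ratio was 5.62 times the second. Female jet lag library 5 had 2.02, female 12:12 libraries 6 and 7 had 1.87 and 1.74, and male jet lag library 8, the highest in Cd79a, had 0.91. Female jet lag library 6 had 0.646 and female jet lag library 2 had 0. Library 3 of the 12:12 males thus carried the most Cdkn2a message both per library and per Cd79a message, although its Cd79a level of 45.6 CPM was the fifth of the 8.

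**Figure D2:**
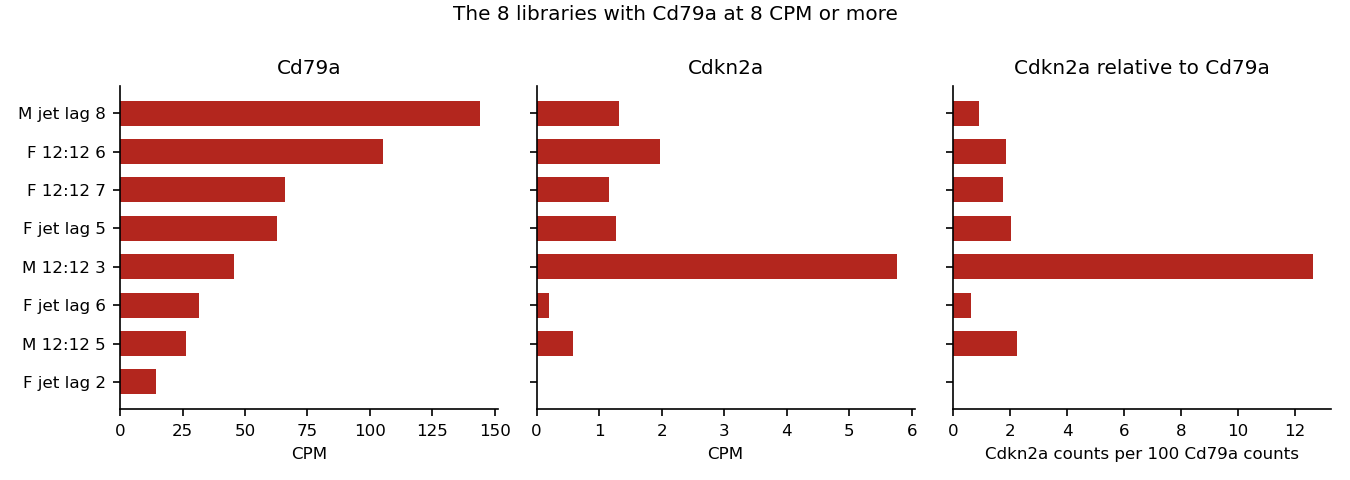
Cd79a level (CPM), Cdkn2a level (CPM) and Cdkn2a counts per 100 Cd79a counts in each of the 8 Cd79a-high libraries, 1 bar per library, ordered by Cd79a. Male 12:12 library 3 stands at 12.6 in the last panel and the other libraries between 0 and 2.25.

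Trp53 was higher in most Cd79a-high libraries. It stood at 45.6 and 41.1 CPM in female 12:12 libraries 6 and 7, at 42.2 CPM in male jet lag library 8 and at 32.9, 26.5 and 23.7 CPM in female jet lag libraries 5, 6 and 2. The 12:12 male libraries were lower, with 22.8 CPM in library 3 and 20.1 CPM in library 5. The Cd79a-low libraries ranged from 12.5 to 22.2 CPM with a median of 18.1 CPM, so 7 of the 8 Cd79a-high libraries lay above all of them and the ratio of the medians was 1.64. The library with the most Cdkn2a, male 12:12 library 3, was just above the Cd79a-low range for Trp53, while female 12:12 library 6 had the most Trp53 and the second-highest level of Cdkn2a. That range pools all groups. Within the 12:12 males, the 4 Cd79a-low libraries ranged from 12.5 to 17.1 CPM (median 14.2), and libraries 3 and 5 both lay above them.

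Mdm2, which encodes the main inhibitor of p53, hardly differed between the sets. Its level was 12.2 to 16.3 CPM (median 14.1) in the Cd79a-high libraries and 10.3 to 17.1 CPM (median 13.3) in the Cd79a-low ones, and no Cd79a-high library lay outside the Cd79a-low range. The log2 ratio of the medians was 0.08 by column sums, -0.04 by TMM scaling and 0.15 without the 10 most abundant genes, while the median over all genes was 0.09, -0.05 and 0.17 under the same scalings. Mdm2 thus had no stable direction and stayed near the median gene. Its relative Mdm4, which binds and restrains p53, was at 45.1 to 98.98 CPM (median 77.3) in the Cd79a-high libraries and 33.5 to 74.0 CPM (median 58.7) in the Cd79a-low ones. For Mdm4, 5 of 8 Cd79a-high libraries lay above the Cd79a-low range.

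The apoptosis genes among the targets differed from each other. Pmaip1 was at 2.09 and 1.32 CPM in female 12:12 libraries 6 and 7, at 1.45 CPM in female jet lag library 5 and at 0.826 CPM in male jet lag library 8. Its level was 0.589 and 0.186 CPM in male 12:12 libraries 5 and 3, and 0.386 and 0.230 CPM in female jet lag libraries 6 and 2. The Cd79a-low libraries had 0 to 0.312 CPM with a median of 0.165 CPM, so 6 of the 8 lay above them and the ratio of the medians was 4.30. For Pmaip1, male 12:12 library 3, highest in Cdkn2a, was within the Cd79a-low range. All these levels are low, and the lowest values rest on few counts.

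Bax spread widely, with a median of 21.1 CPM in the Cd79a-high libraries (12.5 to 32.8 CPM) and 16.8 CPM in the Cd79a-low ones (10.8 to 30.2 CPM). Female jet lag library 5 (32.8 CPM) and female 12:12 library 6 (32.0 CPM) lay above all Cd79a-low libraries. The highest Cd79a-low value came from male jet lag library 7, and without it the median of the Cd79a-high libraries lay above all the others, so the number of members with such a median became 4. Bbc3 went the other way in its pooled medians, with 3.90 CPM in the Cd79a-high libraries (2.20 to 7.86 CPM) and 4.78 CPM in the Cd79a-low ones (1.52 to 9.99 CPM). Within groups, the Cd79a-high and Cd79a-low medians of Bbc3 were 6.65 and 6.75 CPM in jet lag females and 4.36 and 4.77 CPM in 12:12 females. In males they were 2.20 (1 library) and 7.30 CPM under jet lag and, the other way round, 2.74 and 2.42 CPM under 12:12 lighting. No Cd79a-high library lay above or below the Cd79a-low range for Bbc3. An overlapping read-through transcript on the same strand as Bax is annotated, so Bax values may hold its reads.

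Of the arrest genes, Cdkn1a had a median of 1.64 CPM in the Cd79a-high libraries and 0.476 CPM in the Cd79a-low ones, a ratio of 3.46. The Cd79a-high values were uneven: 3.73 CPM in male 12:12 library 3, 3.09 CPM in female jet lag library 5, 2.71 CPM in male jet lag library 8, and 1.69 and 1.60 CPM in female 12:12 libraries 6 and 7. The other 3 stood at 0.564 to 0.670 CPM. The Cd79a-low range ran from 0.220 to 3.05 CPM, with 2 jet lag libraries at the top, male 6 at 3.05 CPM and female 3 at 2.66 CPM, and 2 of the 8 Cd79a-high libraries exceeded it. An antisense transcript overlaps Cdkn1a in the annotation, and the strand setting of the counting is not given. Ccng1 was at 11.3 to 20.4 CPM (median 12.8) in the Cd79a-high libraries and 9.61 to 18.7 CPM (median 13.4) in the Cd79a-low ones. For Ccng1, only female jet lag library 5 lay above the Cd79a-low range.

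The other targets showed no common direction. Zmat3 had medians of 1.51 CPM in the Cd79a-high and 1.47 CPM in the Cd79a-low libraries. Its log2 ratio was 0.03 by column sums, 0.09 without the most abundant genes and -0.13 by TMM scaling. Male jet lag library 8, at 3.26 CPM, and female 12:12 library 7, at 2.15 CPM, lay above the highest Cd79a-low value of 2.09 CPM for Zmat3, and female jet lag library 6, at 0.650 CPM, below the lowest of 0.872 CPM. Phlda3 was low everywhere, with 0 to 0.422 CPM (median 0.0927) in the Cd79a-high libraries and 0.0410 to 0.404 CPM (median 0.133) in the Cd79a-low ones. Both 12:12 male Cd79a-high libraries held 0 counts of Phlda3.

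Counted library by library, the number of the 10 members above the highest Cd79a-low value ran from 1 to 7. Each count is set beside the share of the 16892 genes that passed the filter, as all 10 members did, Cdkn2a only with the Cd79a-high libraries included. Female jet lag library 5 had 7 such members, among them Ccng1, Bax and Phlda3, beside 25.7% of genes. In it Phlda3 (0.422 CPM against at most 0.404) and Cdkn1a (3.09 CPM against at most 3.05) lay only just above the Cd79a-low range. Male jet lag library 8 and female 12:12 libraries 6 and 7 had 4 each, beside 32.8%, 31.9% and 33.8% of genes. Male 12:12 library 3 and female jet lag library 6 had 3 each, beside 20.5% and 21.5% of genes. Male 12:12 library 5 had 2 (11.8% of genes) and female jet lag library 2 had 1, Trp53 (14.8% of genes). Library 5 of the jet lag females therefore had the most raised members but not the largest share of raised genes. Among the 7 members with a mean of at least 1 CPM, 4 were raised in it, beside 26.8% of the 12703 genes at that level. The other Cd79a-high libraries had 0 to 2 of these 7 raised, beside 12.1% to 34.8% of genes. Cdkn1a, which is among those 4, reached that mean only with the Cd79a-high libraries included, the set in which its median is higher. Its place in these counts is therefore description and no support.

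Among genes around the pathway, Myc and cell cycle genes had the largest ratios of medians. Myc, whose row can hold reads of both the transgene and the endogenous gene, was at 19.0 to 293 CPM (median 99.4) in the Cd79a-high libraries and 2.68 to 22.4 CPM (median 5.57) in the Cd79a-low ones. Of 21 measured regulators of p53 and ARF with a mean of at least 1 CPM, 11 had a median above all Cd79a-low libraries and none a median below them, where 21.6% of all genes at that level had a median above and 4.43% a median below. Among these 11, Chek1 (a checkpoint kinase) had medians of 3.53 and 0.338 CPM and Ezh2 (a Polycomb methyltransferase that represses Cdkn2a) medians of 17.8 and 4.55 CPM, in Cd79a-high and Cd79a-low libraries. The mean that sets the level was taken over all 26 libraries. Chek1, at most 0.816 CPM in the Cd79a-low libraries, reached it only with the Cd79a-high ones included. The smallest ratios among the regulators were those of Tbx3, with 11.5 CPM against 20.7 CPM, and Hipk2, with 27.3 CPM against 31.9 CPM. Of 22 other p53 targets at that level, 6 had such a raised median and 1 (Perp) a lowered one, a share of raised genes close to that over all genes. Ckap2 and Gtse1, both also cell cycle genes, had medians of 5.25 and 5.80 CPM in the Cd79a-high libraries and 0.577 and 0.770 CPM in the Cd79a-low ones. Both Cd79a-low medians lie under 1 CPM, so the counts over these lists are description and no support. Apaf1, which encodes the scaffold of the apoptosome, stood at 7.59 CPM against 3.01 CPM and was above every Cd79a-low library in 8 of 8. Of the relatives and neighbours of the members, 5 of 8 reached that level and 2 had raised medians, Cdkn2d (an INK4 family inhibitor, 2.05 against 1.21 CPM) and Mtap (beside Cdkn2a, 15.5 against 11.6 CPM). Cdkn2c, Cdkn1b and Cdkn1c, other CDK inhibitors, had medians of 4.75, 9.66 and 2.24 CPM in the Cd79a-high libraries and 3.54, 8.16 and 1.205 CPM in the Cd79a-low ones. The targets Gadd45a and Gdf15 had lower medians, with 2.87 against 5.94 CPM and 2.61 against 4.28 CPM. The proliferation marker Mki67 was at 20.2 to 304 CPM in the Cd79a-high libraries, and its part in these values was not tested.

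**Figure D3:**
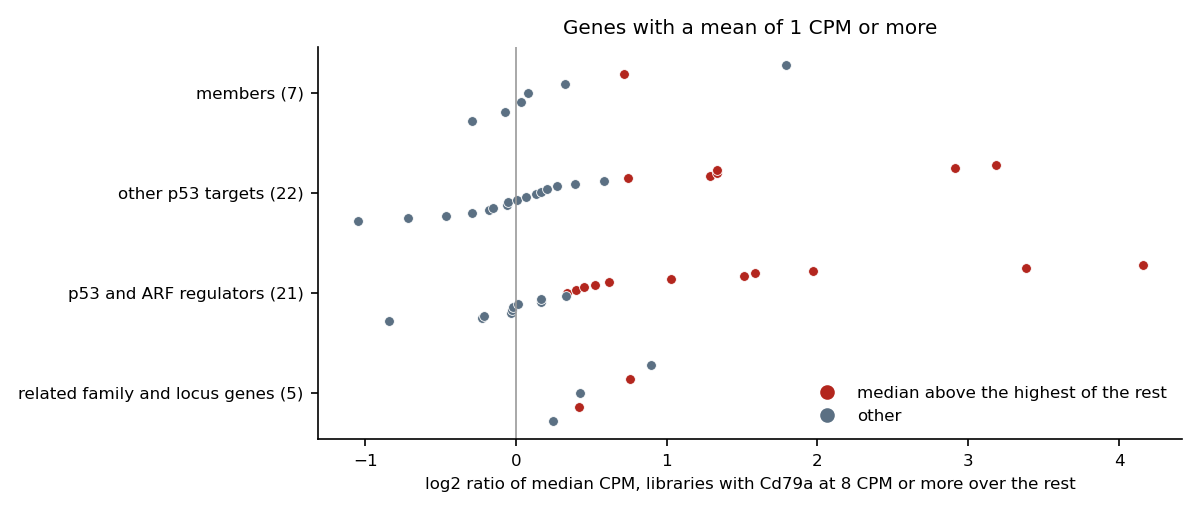
Log2 ratio of median CPM, Cd79a-high over Cd79a-low libraries, for genes of the member set and of the 3 pathway lists with a mean of at least 1 CPM; each point is a gene, red where the median of the Cd79a-high libraries was above every Cd79a-low library. Of the members 1 of 7 is red (Trp53), of the other targets 6 of 22 and of the regulators 11 of 21. The mean was taken over all 26 libraries, so some genes reached it only with the Cd79a-high libraries included.

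Lighting was then compared with edgeR's quasi-likelihood test on all 26 libraries, with Benjamini-Hochberg adjustment over 16892 genes and a threshold of 0.05. None of the 10 members passed in both sexes together, where 0.781% of genes did (75 higher and 57 lower under jet lag). None passed in females, where no gene did (0% called; 772 genes had an unadjusted p under 0.05, and DESeq2 called 55, or 0.326%), or in males, where 0.0118% did (2 genes). The DESeq2 share is of all 16892 genes, of which 1514 had no DESeq2 adjusted p in females. Over both sexes together, Bbc3 came nearest to the threshold, and Cdkn1a had the largest positive log2 fold change among the members. In males, the log2 fold changes of Bbc3 (1.32) and Phlda3 (1.09) were larger than that of Cdkn1a (1.04). Across the members, 6 of 10 log2 fold changes were positive in both sexes together, with a median of 0.07 against 0.02 over all genes. In males 7 of 10 were positive (median 0.41 against 0.09) and in females 4 of 10 (median -0.08 against -0.03).

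Bbc3 had 4.06 to 9.99 CPM (median 6.70) in jet lag females and 2.22 to 6.60 CPM (median 4.77) in 12:12 females. In jet lag males it stood at 7.30, 5.26, 8.23 and 2.20 CPM in libraries 5 to 8, and in 12:12 males at 1.52 to 2.90 CPM (median 2.51). Among females, 5 of 8 jet lag libraries lay above all 12:12 ones, and among males 3 of 4 did, the exception being library 8, the most Cd79a-rich of all. The log2 fold change over both sexes was 0.80 (SE 0.21) with an adjusted p of 0.0643 by edgeR. It was 0.48 (SE 0.25) in females, with an adjusted p of 1.00, and 1.32 (SE 0.31) in males, with an adjusted p of 0.149, both by edgeR. The male and female changes differed by -0.84 (females minus males, SE 0.40), with an unadjusted p of 0.0459 and an adjusted p of 0.814 by edgeR.

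The call on Bbc3 turned on which libraries were used and on the test and model. Without the 8 Cd79a-high libraries it was higher under jet lag by 0.91 (SE 0.22), with an edgeR adjusted p of 0.0316, in a comparison that called 2.32% of 16431 genes. In males alone it was then higher by 1.61 (SE 0.31), with an edgeR adjusted p of 0.0104, in a comparison that called 1.33% of genes (0.858% higher). In those libraries the 3 jet lag males and the 4 12:12 males did not overlap for Bbc3, as was so in that direction for 6.29% of genes with a mean of at least 1 CPM. In females the value was 0.47 (SE 0.24), with an edgeR adjusted p of 0.681, where 0.0791% of genes were called. When each of the 18 libraries was then left out in turn, Bbc3 passed in 10 of 18 fits over both sexes, with edgeR adjusted p-values of 0.0165 to 0.0928, the highest without female jet lag library 3. In males it passed in 17 of 18, and was lost without jet lag library 7 (edgeR adjusted p of 0.0605). With all libraries, leaving out 1 at a time gave edgeR adjusted p-values of 0.0128 to 0.154 and passed in 3 of 26 fits. The edgeR adjusted p was 0.0128 without library 8 of the jet lag males (1.43% of genes called), 0.0381 without library 6 of the jet lag females and 0.0392 without library 3 of the 12:12 females. In males, the fit without jet lag library 8 gave 1.60 with an edgeR adjusted p of 0.00658 (0.62% of genes called), the 1 pass in 26. DESeq2 gave an adjusted p of 0.0132 over both sexes and 0.0189 in males, and called 1.62% and 0.527% of all 16892 genes. Of those genes, 690 over both sexes and 4067 in males had no DESeq2 adjusted p. With the summed B-lineage markers as a covariate, the value was 0.76 (SE 0.18), with an edgeR adjusted p of 0.0272, and 1.73% of genes were called. In males the covariate fit gave an edgeR adjusted p of 0.0549. Bbc3 also did not pass over both sexes with DESeq2 size factors in edgeR (adjusted p of 0.0609) or without the filter on low counts (edgeR adjusted p of 0.0802), or in males from the male libraries only (edgeR adjusted p of 0.724). In the authors' deposited table, whose log2 fold change runs 12:12 over jet lag, Bbc3 had -0.78 with an adjusted p of 0.0327.

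Cdkn1a had 0.326 to 3.09 CPM (median 0.730) in jet lag females and 0.264 to 1.69 CPM (median 0.445) in 12:12 females. In jet lag males it stood at 0.502, 3.05, 1.23 and 2.71 CPM in libraries 5 to 8, and in 12:12 males at 0.220 to 3.73 CPM (median 0.486). The groups overlapped in both sexes, and the top value of each 12:12 group came from a Cd79a-high library. The log2 fold change was 0.91 (SE 0.45) over both sexes, with an edgeR adjusted p of 0.635, and 0.83 (SE 0.59) in females and 1.04 (SE 0.74) in males. Without the Cd79a-high libraries, jet lag females had 0.326, 0.479, 0.790, 1.01 and 2.66 CPM and 12:12 females 0.264 to 0.483 CPM (median 0.361). Jet lag males then had 0.502, 3.05 and 1.23 CPM and 12:12 males 0.522, 0.244, 0.451 and 0.220 CPM. In each sex some jet lag libraries were far above the 12:12 range and others within it. Over both sexes Cdkn1a was then higher under jet lag by 1.73 (SE 0.39), with an edgeR adjusted p of 0.0202. The change was 1.45 (SE 0.50) in females and 2.17 (SE 0.62) in males, with edgeR adjusted p-values of 0.452 and 0.0942 that did not pass. The female value became 0.75 without jet lag library 3, and the male value 1.27 without jet lag library 6. In males, 2 of 18 fits that left out 1 library passed, with edgeR adjusted p-values over all 18 of 0.0283 to 0.247. Leaving out each of the 18 libraries, the call over both sexes held in 16 fits and was lost without female jet lag library 3 (edgeR adjusted p of 0.0741) or male jet lag library 6 (0.0538), those with the highest Cdkn1a among the 18. The authors' deposited table, with all libraries, gave -0.87 for 12:12 over jet lag with an adjusted p of 0.591.

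Bbc3 and Cdkn1a were the only 2 of the 9 members tested without the Cd79a-high libraries that passed, both higher under jet lag, beside 1.38% of genes called higher. Cdkn2a dropped out through the filter on low counts. In those libraries the B-lineage marker sum was 16.6 to 20.1 CPM in jet lag females and 12.0 to 24.0 CPM in 12:12 females, and 12.0 to 14.9 CPM in jet lag males and 10.8 to 12.98 CPM in 12:12 males. The sums overlapped in both sexes, and their part in the calls was not tested beyond the covariate fit on all libraries, in which Cdkn1a had 1.22 (SE 0.37) and an edgeR adjusted p of 0.0983.

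**Figure D4:**
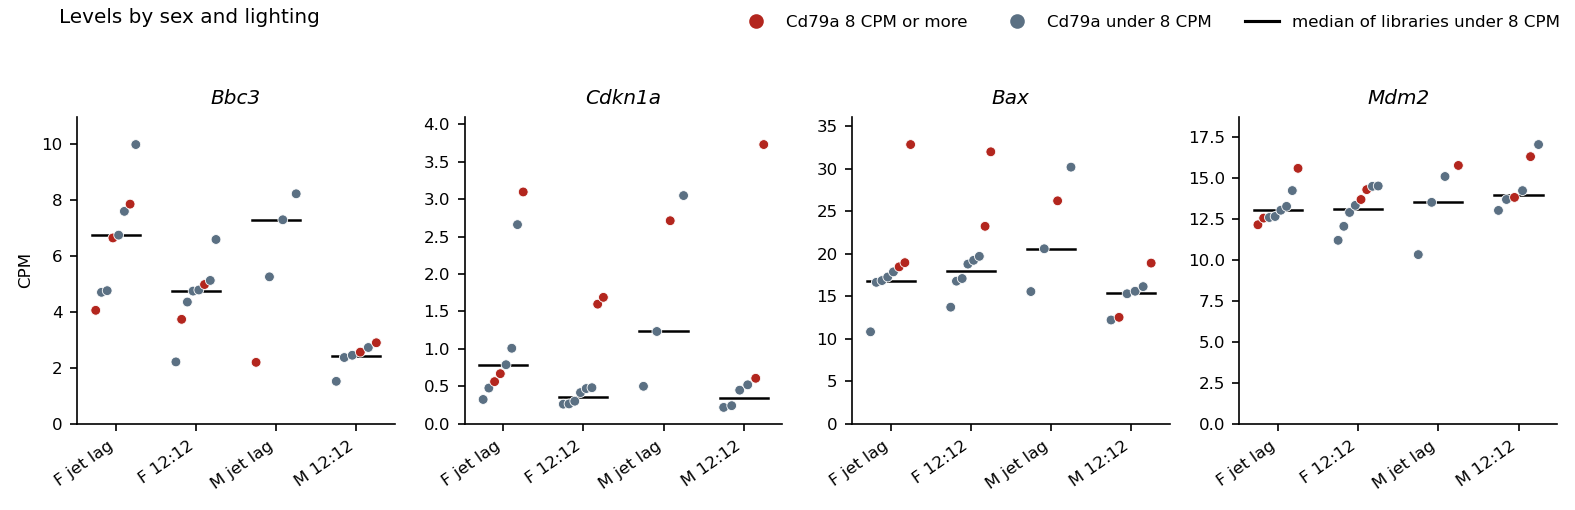
Level in CPM of Bbc3, Cdkn1a, Bax and Mdm2 in the 4 groups, jet lag left of 12:12 within each sex; each point is a library, red where Cd79a was 8 CPM or more, and each line is the median of the Cd79a-low libraries of the group. Bbc3 is higher in 5 of 8 jet lag females and 3 of 4 jet lag males than in any 12:12 library of that sex.

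Bax and Trp53 had larger log2 fold changes in males than in females, without passing. Bax was at 20.6, 15.6, 30.2 and 26.2 CPM in jet lag males 5 to 8 and at 12.2 to 18.9 CPM (median 15.4) in 12:12 males, so 3 of 4 jet lag males were above all 12:12 males. Its change was 0.64 (SE 0.23) in males, with an edgeR adjusted p of 0.358, and -0.12 (SE 0.18) in females. The difference was -0.76 (females minus males, SE 0.29), with an unadjusted p of 0.0132 and an adjusted p of 0.814 by edgeR. Trp53 was at 16.2 to 42.2 CPM in jet lag males and 12.5 to 22.8 CPM in 12:12 males, and at 16.3 to 32.9 CPM in jet lag females and 16.3 to 45.6 CPM in 12:12 females. Its change was 0.50 (SE 0.24) in males, with an edgeR adjusted p of 0.51, and -0.14 in females. The top Trp53 value of each group was a Cd79a-high library. Without those libraries the change of Trp53 was 0.31 in males (95% normal interval 0.07 to 0.54) and 0.003 in females. That of Bax was then 0.58 in males (95% normal interval 0.17 to 0.99) and -0.21 in females. The differences (females minus males) were then -0.30 for Trp53 and -0.79 for Bax, and none of these passed. For no gene did the difference between the sexes pass in edgeR (0% called; 902 genes had an unadjusted p under 0.05, and DESeq2 called 0).

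The inhibitor Mdm2 and the target Ccng1 had the narrowest intervals. The log2 fold change over both sexes was -0.06 for Mdm2 (95% interval -0.19 to 0.06) and 0.03 for Ccng1 (95% interval -0.16 to 0.22). These intervals are normal ones, from the edgeR estimate and its SE. Zmat3 had -0.12 (95% interval -0.44 to 0.20). The values of Cdkn2a, Pmaip1, Cdkn1a and Phlda3 had the largest SEs. Cdkn2a had -1.31 (SE 1.02) over both sexes, which became -0.29 without male 12:12 library 3, -0.76 without female 12:12 library 6 and -2.32 without female jet lag library 5. It was -1.71 in males, a value that became 1.16 without male 12:12 library 3 and -5.92 without male jet lag library 8. For Cdkn2a the authors' deposited table gave 0.28 for 12:12 over jet lag, also lower under jet lag and also not past its threshold. Pmaip1 had -0.20 (SE 0.56) over both sexes, with -0.50 in females and 0.33 in males. Phlda3 had 0.71 (SE 0.41) with an edgeR adjusted p of 0.775.

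**Figure D5:**
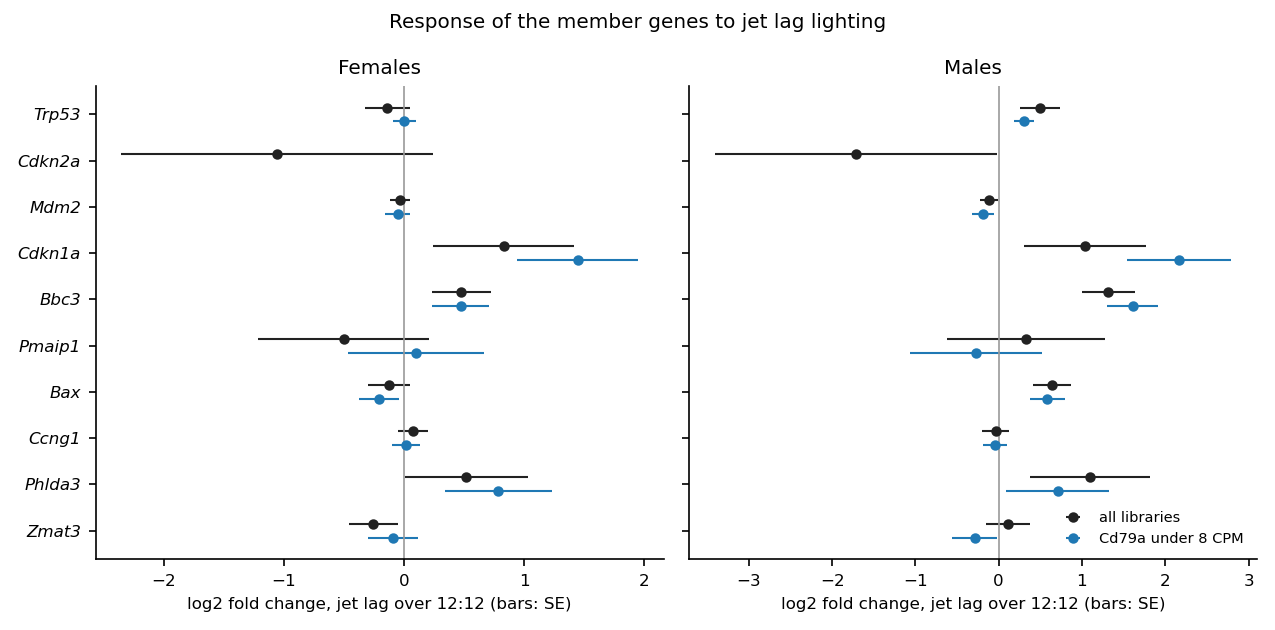
Log2 fold change of each member, jet lag over 12:12 lighting, in females and in males; points are edgeR estimates with bars of 1 SE, black from all libraries and blue from the Cd79a-low libraries, where Cdkn2a was not tested. Bbc3 lies at 0.48 in females and 1.32 in males with all libraries, Mdm2 and Ccng1 lie close to 0 with short bars, and Cdkn2a has the longest bars.

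Genes of the wider pathway were also compared by lighting. Over both sexes 0.781% of all genes passed, a share at which lists this short can hold no call. Of 27 other p53 targets, 26 were tested and none passed over both sexes, with a median log2 fold change of 0.08 against 0.02 over all genes. The smallest p-values among them belonged to Fas, a death receptor (0.39, SE 0.13, edgeR adjusted p of 0.227), Plk3 (-0.72) and Gdf15 (0.66). Of the 22 regulators, none passed and the median was 0.01. Those with the smallest p-values were Zbtb7a (-0.22), Rchy1 (0.15) and Atr (-0.20), while Mdm4 had -0.13 (SE 0.12) and Myc 0.01 (SE 0.81). Without the Cd79a-high libraries, Mdm4 had -0.14 (SE 0.12) and Myc -0.76 (SE 0.45), and neither passed. Of 8 relatives and neighbours of the members, 5 were tested and none passed, with 0.23 for Cdkn1c, 0.07 for Cdkn1b and 0.10 for Mtap. Without the Cd79a-high libraries, where 2.32% of all genes passed, 1 of 27 targets, 1 of 22 regulators and 1 of 5 relatives and neighbours did: Gadd45a was lower under jet lag (-0.66, SE 0.14, edgeR adjusted p of 0.0166), Atr was lower (-0.34, edgeR adjusted p of 0.0403) and Cdkn1c was higher (0.58, SE 0.15, edgeR adjusted p of 0.041). Gadd45a, a stress-induced target linked to growth arrest, thus had the opposite sign to Cdkn1a and Bbc3 in the same fit. In males with all libraries, 20 of the 26 other targets were positive, with a median of 0.26 against 0.09 over all genes. In females 11 of 26 were, with -0.04 against -0.03. Without the Cd79a-high libraries, 16 of 27 were positive in males, with a median of 0.08 against -0.002. None of these lists held a call in either sex alone.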

How the data were processed

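Liver RNA was purified with RNeasy columns and made into stranded mRNA libraries for DNBSEQ sequencing, per the labels. The authors deposited a table of expected counts per gene name and library; the submitters' processing notes name STAR, DESeq2 and mm10 without versions, while the counter, its annotation and its strandedness were not given in the sources used here. In the deposited expected count table, 45.82% of cells held 0.015, set here to 0, and 1.44% were not whole (tolerance 1e-06), so values were rounded; this unit differed from the plain counts planned for, and the count test was kept. Lines sharing a name (47) were summed. CPM is the count over the column sum. A DESeq2 results table deposited by the authors held a log2 fold change, its log2 standard error and p-values, and is quoted beside the values computed here.

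Genes were kept with filterByExpr (minimum count 10) and tested in edgeR 4.0.16 (R 4.3.3) with TMM scaling and robust quasi-likelihood fits: sex plus lighting for both sexes together, and 4 group means for each sex and the difference between them. Alternatives were DESeq2 1.42.0, its size factors, no filter, a replicate block, 1 sex alone, leaving out libraries, leaving out the Cd79a-high libraries and a B-lineage covariate (log2 of the marker sum plus 1). Scripts were tested on simulated data. Members and gene lists were chosen with earlier results of these data known. Beside the members, Myc and Mdm4, the text names from each list the genes past the threshold, the 3 with the smallest p and the genes with the largest and smallest ratios of medians. Leaving out each Cd79a-low library in turn for Bbc3 and Cdkn1a was chosen after seeing the data. Intervals and floors cover counting error or the fitted SE only. Promoter sequences are RefSeq's, build GRCm38.p6. The normalized table was not used.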

Additional observations from a re-analysis of the deposited data

Results flagged for a closer look

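Within single groups, 9 of 40 sets of values of a member had a library far from the others by Dixon's criterion. For independent, normally spread values chance meets it in about 1 in 20 sets. These sets share libraries, mix Cd79a-high with Cd79a-low ones and in part lie near the counting floor. The 9 therefore cannot be weighed against that rate. Male jet lag library 8 stood apart for Trp53 at 42.2 CPM and for Cdkn2a at 1.31 CPM. Male 12:12 library 3 stood apart for Cdkn2a at 5.76 CPM and for Cdkn1a at 3.73 CPM. Female jet lag library 5 stood apart for Cdkn2a at 1.27 CPM, for Pmaip1 at 1.45 CPM and for Bax at 32.8 CPM. Female 12:12 library 6 stood apart for Phlda3 at 0.299 CPM. All of these are Cd79a-high libraries. Male jet lag library 7, which is Cd79a-low, stood apart for Phlda3 at 0.298 CPM.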

How the results depend on the processing

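Over both sexes, 132 genes passed in the lighting comparison as reported, against 274 with DESeq2, 381 without the Cd79a-high libraries and 292 with the B-lineage covariate, and the members past the threshold numbered 1, 2 and 1 under these. In females, 0 genes passed, against 55, 13 and 32 under the same alternatives and 14 with female libraries only. In males, 2 passed, against 89, 219 and 39, and against 0 with DESeq2 size factors and 0 with male libraries only; 1 member (Bbc3) passed with DESeq2 and 1 without the Cd79a-high libraries. The difference between the sexes called 1 gene with the covariate. Leaving out 1 library at a time gave 70 to 244 genes over both sexes (70 without female jet lag library 3, 244 without male jet lag library 8), 0 to 13 in females, 0 to 106 in males and 0 for the difference, with 0 to 1 members over both sexes and 0 to 1 in males; the number of members with a raised median in Cd79a-high libraries was 3 to 4.

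The libraries share numbers between lightings, but same-numbered libraries deviated together only in part, with correlations of -0.384 to 0.602 in females and of -0.269 and 0.267 in males, and a number correlated best with itself in 1 of 8 female pairs and 0 of 2 male pairs. With the replicate block, 111 genes passed over both sexes, 20 in females and 7 in males, and no member did (Bbc3 over both sexes had 0.62, with an edgeR adjusted p of 0.162). Of 1385 log2 fold changes of members under other settings, 32 had the other sign, and none of them passed on either side. With the replicate block these were -0.0212 for Trp53 and -0.0659 for Bax over both sexes, and 0.0458 for Mdm2 and -1.26 for Pmaip1 in males. Without the Cd79a-high libraries they were -0.0065 for Ccng1 over both sexes, 0.0034 for Trp53 and 0.10 for Pmaip1 in females, -0.27 for Pmaip1 and -0.29 for Zmat3 in males, and 0.37 for Pmaip1, 0.0748 for Phlda3 and 0.20 for Zmat3 in the difference between the sexes. With the covariate, Pmaip1 had -0.25 in males and 0.11 in the difference. Leaving out 1 library turned the sign of Trp53 over both sexes (-0.0258 to 0.21) and in females (-0.22 to 0.0305), of Ccng1 over both sexes (-0.0082 to 0.0851), of Cdkn2a in males (-5.92 to 1.16) and in the difference (-2.22 to 4.87), of Zmat3 in males (-0.24 to 0.29), and of Pmaip1 over both sexes (-0.61 to 0.25), in females (-1.21 to 0.20), in males (-0.90 to 0.88) and in the difference (-1.54 to 0.41). It did so too for Cdkn1a (-1.35 to 0.24) and Phlda3 (-0.83 to 0.33) in the difference. The cause was not tested. Depth limits Cdkn2a, Phlda3 and Pmaip1 most, since 3 counts correspond to at most 0.0661 CPM.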

Other observations

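Values of the neighbours of Cdkn2a on chromosome 4 were also read. Mtap, a methionine salvage enzyme, was at 11.3 to 24.2 CPM in the Cd79a-high libraries (median 15.5) and at a median of 11.6 CPM in the Cd79a-low ones, and male 12:12 library 3, the highest in Cdkn2a, had 15.8 CPM. Cdkn2b, which encodes the CDK inhibitor INK4B, held 1 to 5 counts in each Cd79a-high library and 0 to 7 counts in each Cd79a-low one, and 3 counts in male 12:12 library 3. These counts are too low to rank libraries.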
